A study of Homo sapiens with 3 samples.

Results

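The 6 hairpins asked for were those of the miR-10, miR-196 and miR-615 families that lie inside the 4 HOX gene clusters, and 5 of them had a row in the data used here: hsa-mir-10a, hsa-mir-196a-1, hsa-mir-196a-2, hsa-mir-196b and hsa-mir-615. They were chosen by name from the 661 hairpins listed, together with all of their listed mature arms, which were 6 of 783 mature miRNAs. No row for hsa-mir-10b was used here. The members were named for their position, not for their levels.

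HOX genes encode transcription factors that set position along the body axis, and in blood they are on in stem and progenitor cells and are shut off as cells mature. Fusions of KMT2A (also called MLL) keep genes of the HOXA cluster, HOXA9 above all, switched on in leukemia. miRNA genes are embedded between the HOX genes, and miR-10 and miR-196 are known to repress some HOX mRNAs. miR-196b is the member best known from KMT2A-rearranged leukemia. A miRNA is cut from a hairpin in which either arm, 5p or 3p, can be loaded into Argonaute, and bases 2 to 8 of the loaded strand, the seed, do most of the pairing with a target.

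Small RNA was sequenced from MV4-11, an established human acute myeloid leukemia line with an internal tandem duplication of FLT3 and, as the study describes it, an MLL-AF4 fusion. All cells carried a lentiviral CRISPR-Cas9 construct without a guide (empty vector, EV) and had grown for 2 weeks after infection. The design gives 3 replicates of this 1 group, all with the genotype given as WT, and no other group. Read levels can thus be compared between loci, arms and libraries, but not with cells that lack the fusion or the vector. Between different sequences these levels are not molar, since ligation depends on sequence. The sources do not say that the replicates were separate cultures, so the spread and the p-values measure differences between these libraries, which may be technical. Counts assigned to mature miRNAs were 10991953 to 12694823 per library, and replicate 1 stood apart from the other two, with a TMM factor of 0.766 against 1.09 and 1.19. Of 8 miRNAs that mark white blood cells all were listed, from 53.2 FPKM for miR-150-5p to 1351099 FPKM for miR-146b-5p, with a summed level of 3508681 to 4024885 FPKM per library. Of 14 that mark other cells 11 were listed, with 150820 to 251614 FPKM in sum. Most of that sum was miR-126-3p, known from endothelium and also from blood stem cells, with a mean of 134443 FPKM, and miR-124-3p, known from neurons, with 55618 FPKM. miR-206, miR-205-5p and miR-375 had no row, and the part of other cells in the results was not tested. FPKM are the authors' counts divided by the length of the feature and by the total of counts in the library.

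The mature sequences are printed because the seeds group the members and because a single base separates the most abundant miRNA of the set from its closest relative. Capitals mark the seed. Sequences are those of RefSeq on GRCh38.p14, in which all 6 arms were found.
miR-196b-5p: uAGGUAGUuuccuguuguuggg
miR-196a-5p: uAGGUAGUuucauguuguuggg
miR-10a-5p: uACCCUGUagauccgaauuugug
miR-615-3p: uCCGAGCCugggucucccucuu
miR-196b-3p: uCGACAGCacgacacugccuuc
miR-196a-3p: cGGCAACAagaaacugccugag
miR-196a-5p and miR-196b-5p had the same seed and differed at 1 of 22 bases, A12C, with positions counted from 1 at the 5′ end of miR-196a-5p. Among the 679 mature names with a RefSeq sequence, these were the 2 with the miR-196 seed, and miR-10a-5p was the 1 with the miR-10 seed. The first 6 bases of the miR-196 seed also lay inside the seeds of 9 miRNAs of the let-7 family, moved by a base. The let-7 strand is shown for comparison, again with bases 2 to 8 in capitals.
let-7a-5p: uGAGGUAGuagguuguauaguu

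The 3 hairpins of miR-196 are shown because a read of miR-196a-5p fits 2 of them equally. Capitals mark the arms with a row. The copies of miR-196a carry the same 5p arm and differ around it.
MIR196B: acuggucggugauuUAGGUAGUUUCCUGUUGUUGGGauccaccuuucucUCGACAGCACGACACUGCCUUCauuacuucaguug
MIR196A1: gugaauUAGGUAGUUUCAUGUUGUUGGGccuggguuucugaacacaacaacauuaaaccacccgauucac
MIR196A2: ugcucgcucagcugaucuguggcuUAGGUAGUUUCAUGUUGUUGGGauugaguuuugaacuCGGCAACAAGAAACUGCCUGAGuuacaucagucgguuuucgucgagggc
MIR196B lies in the HOXA cluster on the minus strand at chr7:27169480-27169563, in an exon of a HOXA9 transcript in GENCODE and opposite an exon of HOXA10-AS. MIR196A1 lies in the HOXB cluster on the minus strand at chr17:48632490-48632559, between HOXB9 and HOXB13 and in an intron of HOXB7. MIR10A is in the same cluster and on the same strand at chr17:48579838-48579947, where it overlaps an untranslated exon of HOXB4 and an intron of HOXB3. In the HOXC cluster, MIR196A2 lies on the plus strand at chr12:53991738-53991847, between HOXC10 and HOXC9 and in an intron of HOXC6. MIR615 follows on the plus strand at chr12:54033950-54034045, in an intron of HOXC5.

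The pairing of miR-196 with HOX mRNAs can be read from the transcripts. The closest complement of miR-196a-5p in any HOX 3′ untranslated region of GENCODE v29 was in HOXB8, a gene of the same cluster as MIR196A1, and is shown with the base that makes a G:U pair in capitals.
HOXB8 site: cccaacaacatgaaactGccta
It lies on the minus strand at chr17:48612770-48612791 of GRCh38, with 21 Watson-Crick pairs and 1 G:U pair over 22 bases. The exact complement of the miR-196 seed, ACTACCT, was searched on the sense strand in the first 500 bases of 3′ untranslated regions at least that long. It was found in 250 of 12028 protein-coding genes and in 6 of the 32 HOX genes among them, which were HOXA5, HOXA7, HOXA9, HOXB6, HOXB7 and HOXC8. HOXB8 was not among the 6, because the G:U base of its site lies in the stretch that pairs with the seed. A search for the exact complement thus leaves out the closest site shown above. The complement of the miR-10 seed, ACAGGGT, was found in 454 of the 12028 and in 1 of the 32, HOXA3. These are matches of letters, and no mRNA was measured here.

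The question asked first was which HOX locus was read out in these cells. Most reads of the 5 hairpins came from the HOXA cluster. hsa-mir-196b had 5866, 14259 and 20444 counts in replicates 1, 2 and 3. The other 4 hairpins were all between 78 and 301 counts in every library. In FPKM of the hairpin, hsa-mir-196b was 5554, 15583 and 21020, a mean of 14052 ± 7846 (SD, n = 3) and rank 85 of 661. It made up 91.4%, 96.5% and 96.9% of the FPKM summed over the 5 hairpins. The HOXB cluster gave 4.89%, 1.79% and 1.64% and the HOXC cluster 3.68%, 1.74% and 1.48%. The order of HOXB and HOXC is uncertain, since each holds a copy of miR-196a and most reads of the copies fit both. By mean share of FPKM, hsa-mir-196a-1 in HOXB had 1.72% and hsa-mir-196a-2 in HOXC 1.37%. By counts the order turned, with 1.42% and 1.78%. Among the clusters with a member row, the HOXA share was the highest in each of the 3 libraries and was lowest in replicate 1. These shares leave out HOXD, where no member had a row. A hairpin of that cluster which is no member, hsa-mir-7704, had 2011, 1279 and 1155 FPKM and is described below. hsa-mir-10a made up 2.21%, 0.665% and 0.281%, a mean of 1.05% ± 1.02 (SD, n = 3), and without replicate 1 the mean was 0.473%.

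**Figure D1:**
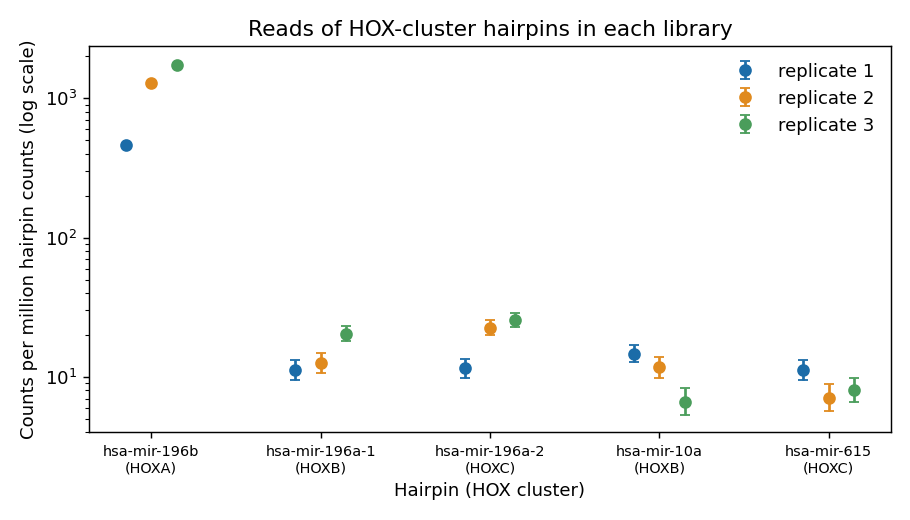
Counts divided by the hairpin total of the library and scaled as CPM (log scale) of the 5 hairpins in each of 3 libraries, with Wilson 95% intervals that cover counting error only. hsa-mir-196b lies at 461 to 1745 and the other 4 at 6.66 to 25.7, so that its libraries do not overlap with theirs.

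The other 4 hairpins were low and close together. hsa-mir-196a-1, in HOXB, had 143, 138 and 239 counts and 163, 181 and 296 FPKM, a mean of 213 ± 71.9 (SD, n = 3). hsa-mir-196a-2, in HOXC, had 146, 249 and 301 counts and 105, 207 and 236 FPKM, a mean of 183 ± 68.6. Both copies had their lowest FPKM in replicate 1 and their highest in replicate 3. hsa-mir-10a, in HOXB, had 186, 129 and 78 counts and 134, 107 and 61.1 FPKM, a mean of 101 ± 36.9 and rank 301. It was highest in replicate 1, the reverse of the miR-196 hairpins. hsa-mir-615, in HOXC, had 143, 78 and 94 counts and 118, 74.5 and 84.4 FPKM, a mean of 92.4 ± 23.0 and rank 311. All 4 were above the median hairpin, which had 68.3 FPKM.

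In the order of mean FPKM, hsa-mir-196b exceeded the next hairpin, hsa-mir-196a-1, by 65.9-fold, and it was higher by 34.1-fold, 85.9-fold and 71.1-fold in replicates 1, 2 and 3. This difference was larger than the SD of either. hsa-mir-196a-1 and hsa-mir-196a-2 differed by 30.6 FPKM, less than their SD, and hsa-mir-10a and hsa-mir-615 by 8.44 FPKM, again less than their SD. hsa-mir-196a-2 exceeded hsa-mir-10a in replicates 2 and 3, while hsa-mir-10a was the higher in replicate 1. The log2 ratio of hsa-mir-10a to hsa-mir-196b was -5.36, -7.17 and -8.40, with a mean of -6.98 ± 1.53 (SD, n = 3). hsa-mir-196b was thus 41.4-fold, 145-fold and 344-fold the higher. The mean log2 ratio was -7.79 without replicate 1 and -6.26 without replicate 3. With 3 libraries a sign-flip permutation cannot give a p below 0.25, so no test of single ratios was made.

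Between the outermost genes of the 4 HOX clusters the annotation places 8 hairpins, and 6 of them had a row. One of these, hsa-mir-7704, is no member. It lies in the HOXD cluster within a coding exon of HOXD1 and opposite an exon of HAGLR. It had 1484, 818 and 785 counts, and as many on its single listed mature strand, with a mean of 1482 ± 462 FPKM (SD, n = 3), above all members but hsa-mir-196b. The others without a row were hsa-mir-10b, which lies in HOXD, and hsa-mir-3185, which lies in HOXB.

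Next, the mature strands were placed among all 783. miR-196b-5p had 5752, 14080 and 20132 counts and 21572, 60984 and 82044 FPKM, a mean of 54867 ± 30697 (SD, n = 3) and rank 75. Without replicate 1 the mean was 71514 FPKM. Its level was above that of 90.4% of mature miRNAs. Its neighbours in the order, miR-152-3p with 55351 ± 16156 FPKM and miR-744-5p with 53784 ± 6028 FPKM, differed from it by less than the SD. miR-196a-5p, summed over its 2 rows, had 276, 373 and 534 counts and 1035, 1616 and 2176 FPKM, a mean of 1609 ± 571 and rank 245. It was above 68.7% of mature miRNAs.

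The remaining arms were near or below the middle of the list. miR-196b-3p had 59, 140 and 259 counts and a mean of 628 ± 418 FPKM (SD, n = 3), which was 414 FPKM without replicate 3. miR-10a-5p had 180, 121 and 75 counts, 644, 500 and 292 FPKM, a mean of 479 ± 177 and rank 343. For miR-615-3p there were 143, 78 and 93 counts and a mean of 418 ± 105 FPKM. These 3 were between 54.7% and 58.2% of the way up the list, and neighbours among them differed by less than the larger SD. miR-196a-3p had 12, 13 and 2 counts, a mean of 36.5 ± 25.2 FPKM and rank 727. At 2 counts its level in replicate 3 was 0.171 CPM (counts scaled to the mature total of the library, Wilson 95% interval 0.0469 to 0.624), so that its level there is known only within a wide range.

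**Figure D2:**
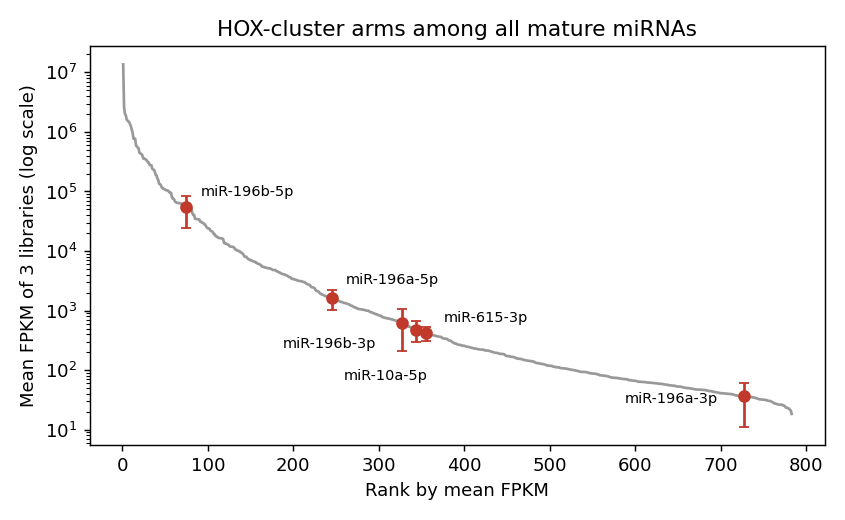
Mean FPKM of 3 libraries (log scale) against rank for all 783 mature miRNAs (grey line), with the 6 HOX-cluster arms in red and bars of 1 SD. miR-196b-5p stands at rank 75, miR-196a-5p at 245, 3 arms lie at ranks 327 to 355 and miR-196a-3p at 727.

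Of the strands with the miR-196 seed, the one from HOXA was the higher in each library. Counts of miR-196a-5p were 4.80%, 2.65% and 2.65% of those of miR-196b-5p in replicates 1, 2 and 3. In FPKM, miR-196b-5p was higher by 20.8-fold, 37.7-fold and 37.7-fold. As these strands differ by 1 base, a read of miR-196b-5p with A in place of C there has the sequence of miR-196a-5p. The part of such reads in the miR-196a-5p counts was not tested. The let-7 miRNAs that share 6 seed bases with miR-196 had 5799048, 4984397 and 5907956 FPKM in sum. Of the 9, 7 were above miR-196b-5p, their median was 105060 FPKM, and they ran from 2756 FPKM for let-7e-5p to 2016034 FPKM for let-7f-5p.

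The 2 rows of miR-196a-5p could be tied to their hairpins. One row was equal to hsa-mir-196a-1 in all 3 libraries, so the other was assigned to hsa-mir-196a-2, after seeing the values. In replicate 1 the second row held 133 of 276 counts, or 48.2% (Wilson 95% interval 42.4 to 54.1). It was the larger row elsewhere, with 235 of 373 or 63.0% (58.0 to 67.7) in replicate 2 and 295 of 534 or 55.2% (51.0 to 59.4) in replicate 3. An even split, 50%, lay inside the interval in replicate 1 alone. Over 32 other mature names with 2 rows and at least 100 counts, 50% lay inside the interval in 59 of 91 cases (64.8%). The levels of the 2 loci are thus uncertain singly, since most of their reads carry a sequence that both share, and their order turned with the unit. By FPKM the log2 ratio of hsa-mir-196a-2 to hsa-mir-196a-1 was -0.62, 0.19 and -0.33, with a mean of -0.25 ± 0.41 (SD, n = 3). By counts, which do not divide by the unequal hairpin lengths of 110 and 70 bases, it was 0.40 ± 0.41. miR-196a-3p, whose sequence MIR196A2 holds and MIR196A1 does not, had 12, 13 and 2 counts.

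Arms were then compared within each hairpin. In each of the 5 hairpins 1 arm held over 90% of the reads in each library, for hsa-mir-196a-1 through the way its row was assigned. miR-196b-5p made up 98.1%, 98.7% and 98.5% of the reads of its hairpin in replicates 1, 2 and 3, and miR-196b-3p 1.01%, 0.982% and 1.27%. In hsa-mir-196a-2 the 5p row held 133 of 146, 235 of 249 and 295 of 301 reads, and the 3p arm 8.22% (Wilson 95% interval 4.76 to 13.8), 5.22% (3.08 to 8.73) and 0.664% (0.182 to 2.39). The 3p share was thus lowest in replicate 3, with an interval apart from the other two. miR-10a-5p held 96.8% (93.1 to 98.5), 93.8% (88.2 to 96.8) and 96.2% (89.3 to 98.7) of its hairpin, and its intervals overlapped in all 3 libraries. miR-615 was the member read from the 3p side, with 143 of 143, 78 of 78 and 93 of 94 reads of its hairpin on miR-615-3p. For hsa-mir-196a-1 no read lay outside the 5p row, with 0 of 143, 0 of 138 and 0 of 239 reads. That row was tied to this hairpin because their counts were equal, so the 0 follows from the choice of row. By counting error alone these totals allow up to 2.10%, 2.17% and 1.26% (3 counts of the total). As the reads also fit MIR196A2, those limits do not bound the arm share of this locus. miR-10a-3p and miR-615-5p had no row, and reads of hsa-mir-10a outside its 5p arm numbered 6, 8 and 3. For comparison, counts were summed over the libraries in 246 hairpins with a mean of at least 100 counts and a single row for each listed arm. The highest listed arm held a median of 95.7%, and it held at least 90% in 62.6% of them. Of these hairpins 41.1% had only 1 listed arm, and neither miR-196a hairpin was among the 246.

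Both member pairs with a row for each arm were tested together with every such pair listed, using edgeR's quasi-likelihood test on counts with the library as a block. In all 161 pairs were called, at an adjusted p under 0.05 and an absolute log2 ratio of at least 1, and 35 were not. The log2 ratio of 5p to 3p for miR-196b was 6.51 (Benjamini-Hochberg adjusted p = 1.16e-05), and in FPKM it was 6.60, 6.65 and 6.28 in replicates 1, 2 and 3. For miR-196a it was 5.44 (edgeR adjusted p = 0.000742), with 4.49, 4.82 and 7.89 in FPKM. The miR-196b ratio was nearly the same in all libraries (SD 0.20), whereas that of miR-196a was highest in replicate 3 (SD 1.88), in which the 3p arm had 2 counts. Without replicate 3 it was 4.67. miR-196a-5p sums 2 loci and miR-196a-3p was listed for 1, and with the 5p row of hsa-mir-196a-2 alone the ratio was 4.59 (edgeR adjusted p = 0.00157). Both pairs, 2 of 2, were called, and both toward 5p. Of all pairs 82.1% were called in either direction and 40.8% toward 5p, so a call by itself sets no member apart. In size, 32 pairs had a larger absolute ratio than miR-196b and 51 a larger one than miR-196a, against a median of 3.13.

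**Figure D3:**
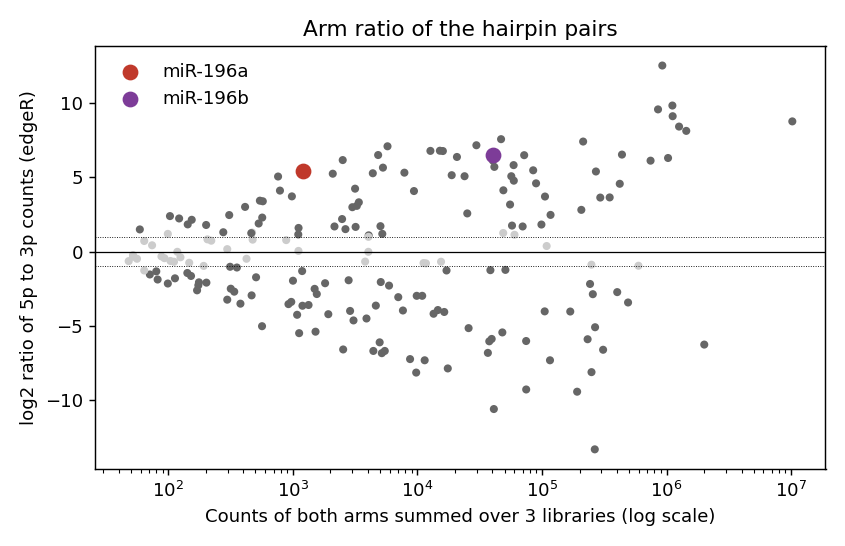
log2 ratio of 5p to 3p counts fitted by edgeR against the counts of both arms (log scale) for the 161 pairs called and the 35 not called. Dark points were called, pale ones were not, and dotted lines mark a ratio of 1 on the log2 scale in each direction. miR-196b at 6.51 and miR-196a at 5.44 lie on the 5p side.

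Several of these arms differed between libraries beyond counting error, and not all in one direction. In CPM, miR-196b-5p was 453 (Wilson 95% interval 442 to 465), 1281 (1260 to 1302) and 1723 (1700 to 1747) in replicates 1, 2 and 3. miR-10a-5p was 14.2 (12.3 to 16.4), 11.0 (9.21 to 13.2) and 6.42 (5.12 to 8.05). The first was lowest in replicate 1 and highest in replicate 3 with no overlap of intervals, and the second was highest in replicate 1 and lowest in replicate 3. miR-196b-3p, with 4.65, 12.7 and 22.2 CPM, was ordered like its own 5p arm. miR-615-3p was 11.3, 7.10 and 7.96 CPM, highest in replicate 1.

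These differences were set beside those of the 358 mature miRNAs with a mean of at least 100 counts. From replicate 1 to replicate 3 the median of all was 0.53 higher on the log2 scale of CPM. miR-196b-5p was 1.93 higher, above 92.2% of the 358, and miR-196b-3p 2.24 higher, above 96.1%. miR-196a-5p was 1.07 higher, above 72.3%. miR-10a-5p was lower, with a difference of -1.14, and only 1.12% of the 358 lay below it. miR-615-3p had a difference of -0.50, with 11.2% below it. Between replicates 2 and 3 alone, miR-10a-5p still differed by -0.77 and miR-196b-5p by 0.43, against a median of 0.10. The coefficient of variation of miR-196b-5p was 55.9%, the 14th highest among 163 miRNAs that reached 1000 counts in each library, whose median was 29.1%. Scaling by TMM or by the median of ratios, which brings the middle of all miRNAs level, kept these directions. The difference from replicate 1 to replicate 3 was then 1.29 and 1.36 for miR-196b-5p, 0.43 and 0.51 for miR-196a-5p, -1.78 and -1.71 for miR-10a-5p, and -1.14 and -1.06 for miR-615-3p. The cause of the differences between libraries was not tested.

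**Figure D4:**
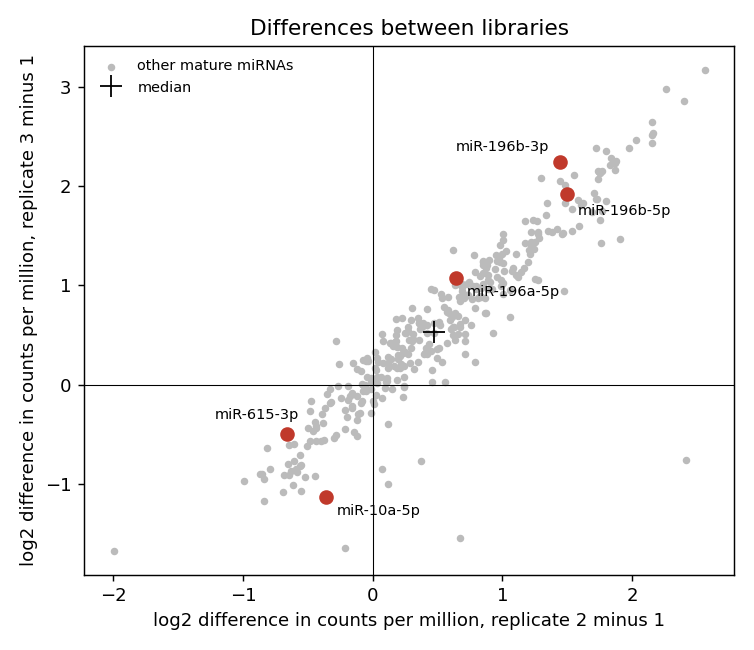
log2 differences in CPM of replicate 2 (x axis) and replicate 3 (y axis) from replicate 1 for 358 mature miRNAs (grey), with the HOX-cluster arms in red and the median as a cross. The 3 plotted miR-196 arms lie above 0 on both axes and miR-10a-5p and miR-615-3p below 0 on both.

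Relatives of miR-10 by sequence and other miRNAs linked to KMT2A-rearranged leukemia were listed for comparison. Of 5 relatives, 4 had a row and none was above miR-196b-5p. miR-99b-5p had 11873 ± 650 FPKM (SD, n = 3), miR-125a-5p 6008 ± 3253 and miR-100-5p 993 ± 179, all 3 above miR-10a-5p, while miR-99a-5p had 74.3 ± 37.9. Of 9 miRNAs linked to this leukemia, all had a row and 8 were above miR-196b-5p. miR-9-5p had 340814 ± 29486 FPKM, which was 6.21-fold the mean of miR-196b-5p, and miR-92a-3p 1548885 ± 310450. The one below miR-196b-5p was miR-150-5p, with 53.2 ± 30.0 FPKM. The list was fixed without a direction of change for its miRNAs. The medians of these lists were 3500 and 340814 FPKM, against 270 FPKM for all 783 mature miRNAs.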

How the data were processed

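Small RNA libraries (NEB protocol, Illumina) were made from total RNA of 3 MV4-11 replicates. From aligned reads the authors counted mature strands and hairpins of miRBase release 21. The submitters' processing notes name Novoalign 2.08.03 and the builds hg19 and mm10. The deposited tables hold raw counts and, from the same reads, FPKM as computed by the authors. FPKM used the total of counts and a length 1 base under that of RefSeq for each of the 5 hairpins. Every row reached 10 counts in at least 1 library, so the tables are a filtered set.

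Rows of a mature name were summed. Levels are FPKM, with counts for intervals. Arm pairs were tested with edgeR 4.0.16 in R 4.3.3 (model of library and arm, offsets from library totals, Benjamini-Hochberg over the tested pairs, all with a row for each arm). A pair was called at an adjusted p under 0.05 and an absolute log2 ratio of at least 1. limma 3.58.1, DESeq2 1.42.0, other filters, other scalings and leaving out each replicate were alternatives. Ratios of FPKM used log2(FPKM + 1). Differences between libraries used counts plus 0.5. Other values came from Python 3.11.15. The libraries have no molecular identifiers and ligation depends on sequence, so Wilson intervals and limits cover counting error only and levels are not molar.

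hsa-miR-1-3p was matched to the row named miR-1. The members, lists and tests were chosen with earlier results of these data known. miRNAs named with values were all member hairpins and arms, other hairpins inside HOX clusters, sharers of a member's seed, the fixed lists, the neighbours in rank and the 3 nearest in pattern of the 2 highest arms. Coordinates are those of RefSeq on GRCh38.p14 and GENCODE v29, since the tables give none.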

Additional observations from a re-analysis of the deposited data

How the results depend on the processing

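miR-196b stayed called toward 5p in each arm fit run, and miR-196a in each that tested it. The 2 member pairs called fell to 1 on leaving out names that have more than 1 row and to 1 with at least 100 counts on each arm, since miR-196a is then not tested. That minimum called 104 pairs of 122 tested, against 161 called and 35 not, and it and the use of the 5p row of hsa-mir-196a-2 alone were chosen after seeing the data. The log2 ratio of hsa-mir-196a-2 to hsa-mir-196a-1, -0.25 by FPKM, was 0.40 by counts and 0.39 with mature arms summed. The mature lengths are nearly equal and the hairpin lengths are not. Without 1 replicate in turn, 140 to 169 pairs were called, both member pairs among them, and the share of hsa-mir-10a, 1.05% ± 1.02 (SD, n = 3), ran from 0.473% without replicate 1 to 1.44% without replicate 3. The minimum of 10 counts removed no pair, and the filter at 100 FPKM cannot change a rank above it and left miR-196a-3p out. Leaving out 1 of 3 replicates cannot move a mean by its SD, so those ranges are no sign of stability. The arm test compared both arms within each library, and with a single group there were no samples to pair across groups.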

Other observations

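The miRNAs most like the 2 highest arms over the 3 libraries were sought among those with at least 1000 counts in every library, by the Euclidean distance of log2 CPM (counts scaled to the mature total of the library) centred on their mean. Closest to miR-196b-5p were miR-598-3p, with 99.3, 283 and 368 CPM in replicates 1, 2 and 3 and a distance of 0.0381, miR-124-3p, with 405, 1134 and 1632 and a distance of 0.0743, and miR-15a-5p, with 177, 515 and 607 and a distance of 0.143. Closest to miR-196a-5p were miR-28-3p, with 226, 355 and 457 CPM and a distance of 0.0488, let-7b-5p at 0.0947 and miR-185-5p at 0.105. With 3 libraries a pattern has few ways to differ, and these are descriptions of the libraries.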
